A study of Danio rerio with 12 samples.

Results

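The genes described here make, move and sense bile acids in zebrafish larvae: the synthesis enzymes cyp7a1 and cyp8b1, the transport proteins abcb11a, abcb11b, slc10a2 and fabp6, and the nuclear receptors nr1h4, nr0b2a, nr5a2 and nr5a5. They were chosen by symbol, without regard to letter case, with every Ensembl gene ID of a shared name taken, which gave 12 of the 32105 IDs in the count tables. The name table writes several of them as human symbols. The genes abcb11b and nr0b2a were set by ID, as ABCB11 (ENSDARG00000070078) and NR0B2 (ENSDARG00000044685), each the only ID with that name in the table. The choice described the ABCB11 ID as the strongly lowered copy, so its fall is given as a description, without p-values, and counts are also given without it. The name CYP8B1 covers 3 IDs. Of the 12 IDs, 10 passed the filter on low counts. The other two were CYP8B1 copies: ENSDARG00000097556 had 1 to 9 counts in each of the 12 libraries, and ENSDARG00000097559 had 0 in all of them, which allows a level of up to 0.00682 CPM (3 counts over all libraries together).

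Bile acids are made in hepatocytes from cholesterol. Cyp7a1 catalyses the rate-limiting first step of the classical route, and Cyp8b1 adds a hydroxyl group that decides which bile acid is made. In zebrafish bile most of the product is a sulfated bile alcohol. The salts leave the hepatocyte through the bile salt export pump, the product of ABCB11 genes, and in mammals they are taken back in the ileum by Slc10a2 and carried through the enterocyte by Fabp6. The receptor FXR, product of nr1h4, binds bile acids. In mammals it raises transcription of NR0B2, whose product SHP represses cyp7a1 by acting on the NR5A2 receptor LRH-1, and it also raises ABCB11 and FABP6.

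RNA came from pools of 10 whole larvae collected at 119 hours post-fertilization. The as3mt mutant larvae came from incrossed homozygotes, carried a deletion of 8 bp in exon 3 of as3mt that gives a premature stop, and had the ABNYU background. As3mt is arsenite methyltransferase, which methylates inorganic arsenic (iAs). The 4 groups, of 3 libraries each, were mutant larvae kept in 1 mM iAs from 6 hours post-fertilization, untreated mutant larvae, wild-type larvae of the TAB14 strain kept in the same iAs, and untreated TAB14 larvae. Genotype and background went together in every comparison and cannot be told apart. The titles end in cl1, cl2 or cl3 in each of the 4 groups, and the labels do not say whether this marks a clutch, so p-values cover the spread among these libraries, which may be technical.

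Library totals ran from 28909467 to 43759270 counts, and levels below are CPM after TMM scaling, that is, counts relative to library size, which do not compare one gene with another because they are not set to transcript length. The targeted gene AS3MT stood at 3.02 to 3.51 CPM in treated mutants, 9.21 to 9.91 in untreated mutants, 9.73 to 9.93 in treated wild type and 14.3 to 17.2 in untreated wild type. Its transcript was thus still counted in the mutant. A difference is called where edgeR's quasi-likelihood test gave a Benjamini-Hochberg adjusted p below 0.05 over all 23096 genes tested.

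In mutants, iAs lowered the 10 bile acid genes tested without exception, while 32.6% of all genes were called lower. The genes were chosen with earlier results of these data known, so counts over the 10 are descriptions. In wild type, 6 of the 10 fell, where 22.2% of all genes did, and 2 rose, where 22.6% of all genes did. The median log2 fold change of the 10 was -1.39 in mutants, beside 0.01 over all genes, and -0.78 in wild type, also beside 0.01. Without ABCB11, 9 of 9 fell in mutants (median -1.17), and 5 fell and 2 rose in wild type (median -0.68). The falls were uneven. They ran from 1.37-fold for nr1h4 to 37.4-fold for abcb11b in mutants, and from 1.60-fold for cyp8b1 to 3.75-fold for nr5a5 among the called falls in wild type. Both nr0b2a and nr1h4 rose in wild type and fell in mutants. Treated and untreated libraries did not overlap for 10 of the 10 in mutants. In wild type they did not overlap for 9 of the 10, with abcb11a the exception. Without ABCB11, these counts were 9 of 9 and 8 of 9. In these comparisons, 63.6% and 44.8% of all genes were called in either direction. The groups did not overlap for 66.7% of all genes in mutants and for 55.5% in wild type. In whole larvae, fewer cells of a type and less RNA per cell cannot be told apart.

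**Figure D1:**
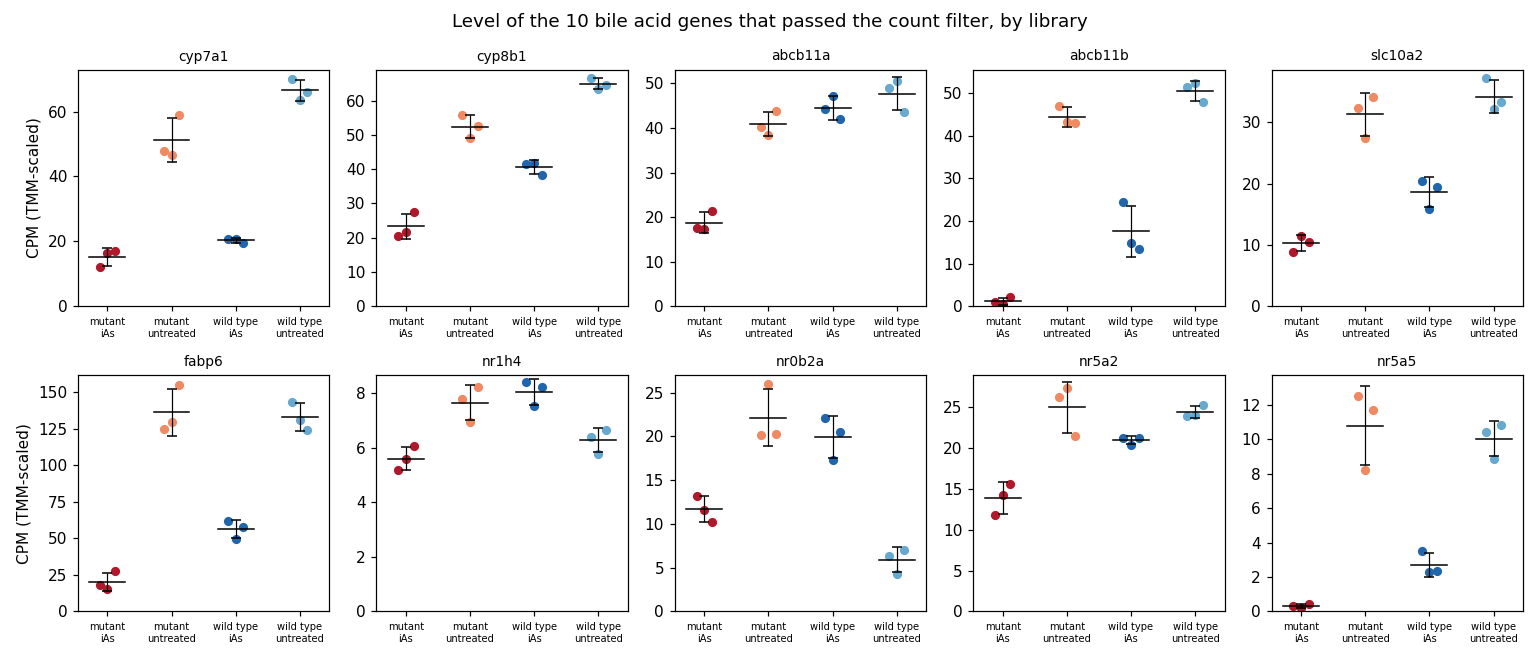
Level of each bile acid gene in CPM (y axis, linear and starting at 0) in each of the 3 libraries per group (points), with the group mean (line) and SD (error bar). Most genes are lowest in treated mutants, with abcb11b at 0.453 to 2.10 CPM there against 43.1 to 47.1 CPM in untreated mutants, whereas nr0b2a is lowest in untreated wild type.

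The synthesis enzymes fell in both genotypes. The gene cyp7a1 (CYP7A1, ENSDARG00000069018) was at 12.0, 16.4 and 17.0 CPM in treated mutants and at 48.0, 46.7 and 59.0 CPM in untreated mutants. In wild type it was at 20.7, 20.9 and 19.4 CPM with iAs and at 70.0, 63.6 and 66.1 CPM without. Every treated library lay below every untreated one, in both genotypes. The fall was 3.40-fold in mutants (log2 fold change -1.76, SE 0.11, adjusted p = 2.15e-10 by edgeR) and 3.28-fold in wild type (-1.71, SE 0.11, adjusted p = 7.76e-10). It was the only one of the 10 whose response was not called different between genotypes: the difference, mutant response minus wild-type response, was -0.05 on the log2 scale with an SE of 0.15 (adjusted p = 0.830). Its level was lower in mutants than in wild type both with iAs, 1.35-fold (adjusted p = 0.00399), and without it (log2 fold change -0.38, SE 0.10, adjusted p = 0.0199).

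The measured copy of cyp8b1 (CYP8B1, ENSDARG00000053068) showed 20.6, 21.7 and 27.6 CPM in treated mutants and 55.8, 49.0 and 52.5 CPM in untreated mutants. Treated wild type had 41.5, 41.9 and 38.2 CPM, and untreated wild type 66.7, 63.6 and 64.5 CPM. The 4 groups did not overlap and stood in the order treated mutant, treated wild type, untreated mutant, untreated wild type. The response was 2.26-fold lower in mutants (-1.17, SE 0.09) and 1.60-fold lower in wild type (-0.68, SE 0.09), and the difference of -0.49 (SE 0.12) was called by edgeR (adjusted p = 0.00582). Without iAs, CYP8B1 was 1.24-fold lower in mutants (adjusted p = 0.0235). These calls without iAs were easily lost. Leaving out 1 of the 6 untreated libraries at a time, the CYP7A1 call was lost in 4 cases (replicates 1 and 3 of wild type, 1 and 2 of the mutant) and the CYP8B1 call in 5 (each replicate of wild type, 2 and 3 of the mutant). The adjusted p by edgeR was highest without replicate 2 of the untreated mutant, at 0.103 for CYP7A1 and 0.115 for CYP8B1. RefSeq's gene table (assembly GRCz12tu) lists 3 cyp8b1 copies as neighbours, but these could not be tied to the 3 Ensembl IDs. How reads shared between such copies were assigned is not given in the sources used here, so the split of counts among the 3 IDs is uncertain.

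The bile salt export pump has a pair of copies in zebrafish. The copy abcb11b (ABCB11, ENSDARG00000070078), the one that exports bile salts in zebrafish liver, had 40, 16 and 67 raw counts in treated mutants, or 1.08, 0.453 and 2.10 CPM, against 1865, 1571 and 1524 counts, or 47.1, 43.1 and 43.1 CPM, in untreated mutants. It stood at 24.5, 14.9 and 13.4 CPM in treated wild type and 51.4, 52.3 and 47.9 CPM in untreated wild type. None of the groups overlapped, and replicate 1 of treated wild type was the highest of its group. As a description, ABCB11 was 37.4-fold lower with iAs in mutants (-5.22, SE 0.27) and 2.90-fold lower in wild type (-1.53, SE 0.20), and the difference between the responses was -3.69 (SE 0.35). Without replicate 3 of the treated mutant, these were 57.2-fold in mutants and -4.30 for the difference. Untreated mutants and untreated wild type were not called different in ABCB11 by edgeR (log2 fold change -0.19, SE 0.19, adjusted p = 0.584).

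The paralogue abcb11a (ENSDARG00000011573) was at 17.5, 17.4 and 21.4 CPM in treated mutants, 40.1, 38.5 and 43.9 in untreated mutants, 44.3, 47.2 and 42.0 in treated wild type and 48.9, 50.6 and 43.7 in untreated wild type. Treated mutants stood apart below all other groups, which overlapped in part. The fall was 2.18-fold in mutants (-1.12, SE 0.09, adjusted p = 4.10e-09 by edgeR), and in wild type the log2 fold change was -0.10 (SE 0.08, adjusted p = 0.344). The interaction for abcb11a was -1.02 (SE 0.12, adjusted p = 7.93e-06). The ratio of ABCB11 to abcb11a counts, which cancels library scaling, was 0.0616, 0.0261 and 0.0980 in treated mutants and 1.17, 1.12 and 0.981 in untreated mutants. In wild type the ratio was 0.552, 0.316 and 0.319 with iAs and 1.05, 1.03 and 1.097 without. Within each genotype the treated ratios all lay below the untreated ones, a description that the choice of the lowered copy partly sets. Without iAs, abcb11a was not called between genotypes by edgeR (-0.23, SE 0.08, adjusted p = 0.0889), though it was in a fit of the untreated groups alone (adjusted p = 0.0435).

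The intestinal genes fell in both genotypes and further in mutants. The ileal uptake transporter slc10a2 (SLC10A2, ENSDARG00000014916) was at 8.93, 11.5 and 10.5 CPM in treated mutants and 32.4, 27.4 and 34.1 CPM in untreated mutants. Treated wild type had 20.5, 15.8 and 19.4 CPM and untreated wild type 37.2, 32.1 and 33.3 CPM. The untreated groups overlapped and the treated ones did not. SLC10A2 fell 3.04-fold in mutants (-1.61, SE 0.11) and 1.84-fold in wild type (-0.88, SE 0.11), with a difference of -0.72 (SE 0.16, adjusted p = 0.00213 by edgeR).

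The ileal bile acid binding protein gene fabp6 (FABP6, ENSDARG00000044566) was at 17.8, 15.6 and 27.4 CPM in treated mutants and 125, 129 and 155 CPM in untreated mutants. The corresponding levels in wild type were 62.0, 49.7 and 57.7 CPM with iAs and 143, 131 and 124 CPM without. As for SLC10A2, the untreated genotypes overlapped and the treated groups were separate from them and from each other. FABP6 fell 6.74-fold in mutants (-2.75, SE 0.15, adjusted p = 3.61e-11 by edgeR) and 2.36-fold in wild type (-1.24, SE 0.14, adjusted p = 1.46e-06). The difference between the responses was -1.52 (SE 0.20, adjusted p = 2.40e-05).

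Among the receptors, nr0b2a moved in opposite directions in the 2 genotypes. This gene (NR0B2, ENSDARG00000044685), which encodes the repressor SHP, was at 13.2, 11.6 and 10.2 CPM in treated mutants and 20.2, 25.9 and 20.3 CPM in untreated mutants. In wild type it was at 22.1, 17.3 and 20.4 CPM with iAs and only 6.32, 4.33 and 7.06 CPM without. Untreated wild type was the lowest group, treated mutants came next, and untreated mutants overlapped with treated wild type at the top. NR0B2 fell 1.89-fold in mutants (-0.92, SE 0.15, adjusted p = 2.57e-05 by edgeR) and rose 3.40-fold in wild type (1.77, SE 0.16, adjusted p = 6.68e-08), a difference of -2.69 (SE 0.21, adjusted p = 1.04e-07). Without iAs it was 3.78-fold higher in mutants than in wild type (1.92, SE 0.16, adjusted p = 2.23e-07), and with iAs it was 1.70-fold lower in mutants (adjusted p = 2.90e-04).

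The second SHP gene, nr0b2b (ENSDARG00000102756), is not one of the 12 IDs but belonged to the list of other regulators. It was counted at 7, 2 and 5 reads in treated mutants, 87, 70 and 38 in untreated mutants, 152, 207 and 188 in treated wild type and 67, 32 and 37 in untreated wild type. Treated mutants were the lowest group and treated wild type the highest. The gene nr0b2b fell 12.7-fold in mutants (-3.66, SE 0.43, adjusted p = 6.83e-07 by edgeR) and rose 3.41-fold in wild type (1.77, SE 0.28, adjusted p = 5.60e-05). Without iAs, nr0b2b was not called between genotypes by edgeR (0.39, SE 0.29, adjusted p = 0.436). Whether the SHP copies differ there was not tested.

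**Figure D2:**
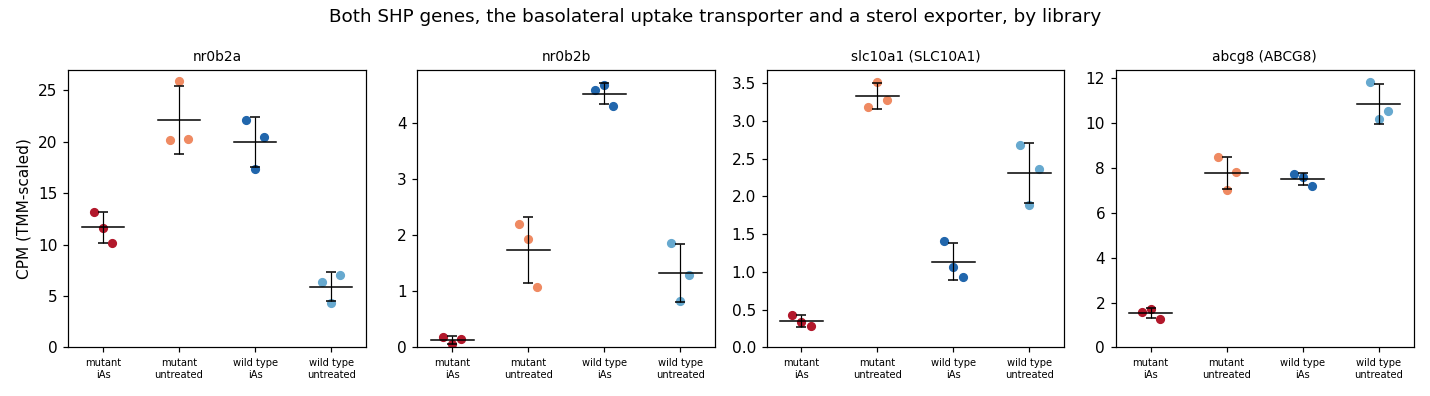
Level in CPM (y axis, linear and starting at 0) of the SHP genes nr0b2a and nr0b2b, the uptake transporter slc10a1 and the sterol exporter abcg8 in each of the 3 libraries per group, with mean and SD. In wild type the treated libraries of both SHP genes lie above the untreated ones, and in mutants they lie below, while slc10a1 and abcg8 are lower with iAs in both genotypes.

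The FXR gene nr1h4 (NR1H4, ENSDARG00000057741) also fell in mutants and rose in wild type, by smaller amounts. It was at 5.18, 5.58 and 6.04 CPM in treated mutants, 7.77, 6.95 and 8.22 in untreated mutants, 8.39, 7.52 and 8.21 in treated wild type and 6.41, 5.78 and 6.64 in untreated wild type. Treated mutants overlapped with untreated wild type, and untreated mutants with treated wild type. The fall in mutants was 1.37-fold (-0.45, SE 0.11, adjusted p = 0.00231 by edgeR) and the rise in wild type 1.28-fold (0.36, SE 0.11, adjusted p = 0.0156), with a difference of -0.81 (SE 0.16, adjusted p = 0.00107). The NR1H4 call in wild type was lost, at an adjusted p of 0.0750, without replicate 2 of untreated wild type, and also without replicate 1 or replicate 3 of treated wild type.

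The LRH-1 gene nr5a2 (NR5A2, ENSDARG00000100940) was at 11.8, 14.3 and 15.6 CPM in treated mutants and 26.2, 27.3 and 21.4 CPM in untreated mutants. Wild type had 21.2, 20.4 and 21.2 CPM with iAs and 23.9, 24.0 and 25.3 CPM without. Treated mutants were the lowest group, treated wild type lay above them and just below both untreated groups, and the untreated groups overlapped. NR5A2 fell 1.80-fold in mutants (-0.85, SE 0.10, adjusted p = 1.00e-06 by edgeR), was not called in wild type (-0.22, SE 0.10, adjusted p = 0.0819), and the responses differed by -0.63 (SE 0.14, adjusted p = 0.00284). In a fit of the wild-type groups alone, the wild-type value for NR5A2 of -0.22 was called by edgeR (adjusted p = 0.0139), as it was without replicate 1 of the treated mutant (0.0412) or replicate 3 of the untreated mutant (0.0389).

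A further member of this receptor family, nr5a5 (ENSDARG00000039116), which fish have and mammals lack, also fell in both genotypes. It had 11, 7 and 14 raw counts in treated mutants, or 0.297, 0.198 and 0.438 CPM, and 495, 298 and 414 counts, or 12.5, 8.18 and 11.7 CPM, in untreated mutants. Treated wild type stood at 3.49, 2.28 and 2.33 CPM and untreated wild type at 10.4, 8.87 and 10.8 CPM. The untreated groups overlapped, and each treated group lay apart. The gene nr5a5 fell 34.8-fold in mutants (-5.12, SE 0.26, adjusted p = 1.70e-11 by edgeR) and 3.75-fold in wild type (-1.91, SE 0.19, adjusted p = 2.87e-07). The difference was -3.21 (SE 0.35, adjusted p = 3.04e-06).

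**Figure D3:**
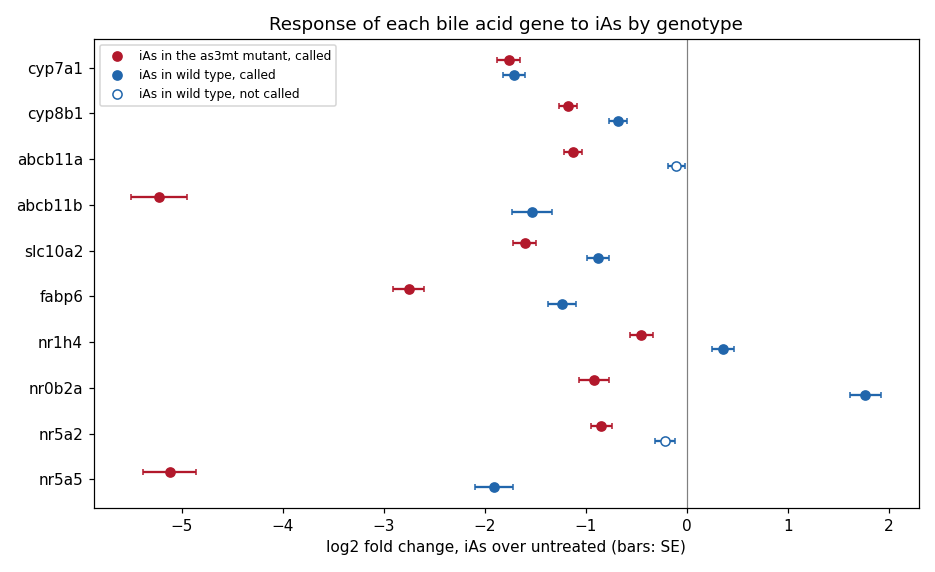
Log2 fold change of each bile acid gene, iAs over untreated (x axis; bars are the SE of the edgeR fit), in the mutant (red) and in wild type (blue), with open points for genes not called. The red point lies to the left of the blue one by a called difference for 9 of the 10 genes, or 8 of the 9 other than abcb11b. The abcb11b points are a description, as this gene was chosen as a lowered copy. For nr1h4 and nr0b2a the red and blue points lie on opposite sides of 0.

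Set directly against each other, treated mutants were below treated wild type for the 10 genes tested, where 27.9% of all genes were called lower. The groups overlapped for none of the 10, where they did not overlap for 57.4% of all genes. Of all genes, 50.4% were called in either direction. Without ABCB11, 9 of 9 were called lower, and the groups did not overlap for 9 of 9. ABCB11 was 14.7-fold lower (-3.88, SE 0.28), or 22.5-fold without replicate 3 of the treated mutant, and nr5a5 was 8.60-fold lower (-3.11, SE 0.30). FABP6, abcb11a and SLC10A2 were 2.79-fold, 2.38-fold and 1.80-fold lower. CYP8B1, NR0B2, NR5A2, NR1H4 and CYP7A1 were 1.74-fold, 1.70-fold, 1.51-fold, 1.44-fold and 1.35-fold lower.

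Without iAs, 3 of the 10 were called between genotypes: NR0B2 higher in mutants, where 6.64% of all genes were, and CYP7A1 and CYP8B1 lower, where 6.82% of all genes were. Among the other seven, log2 fold changes ran from -0.23 for abcb11a to 0.29 for NR1H4. The interaction was negative and called for 9 of the 10, or 8 of the 9 other than ABCB11, where 17.9% of all genes were called negative and 30.2% in either direction. Scaling by library size alone gave 2110 positive and 5100 negative interactions over all genes, in place of 2842 and 4142, and the same 9 bile acid genes were called.

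Other genes of bile acid and bile alcohol synthesis changed in both directions. Of 29 tested, 19 fell and 7 rose in mutants (median log2 fold change -0.50, beside 0.01 over all genes), where 32.6% and 31.1% of all genes did. In wild type 12 fell and 7 rose (median -0.11), where 22.2% and 22.6% of all genes did. The acyl-CoA synthetase gene slc27a2a (ENSDARG00000036237), of the family that activates the side chain, fell to 18.5 ± 1.99 CPM in treated mutants, against 80.1 ± 7.21 CPM in untreated mutants (SD, n = 3 each). That is 4.31-fold in mutants, beside 1.61-fold in wild type. One copy of the sterol side-chain hydroxylase CYP27A1 (ENSDARG00000055159) fell 4.21-fold in mutants and 1.89-fold in wild type. Other CYP27A1 IDs, named after their values were seen, had lower means with iAs in both genotypes. For ENSDARG00000069186 these were 0.661 against 1.55 CPM in mutants and 0.721 against 1.38 CPM in wild type. For ENSDARG00000088013 they were 2.94 against 7.65 CPM in mutants and 4.20 against 6.26 CPM in wild type. The largest called differences between the responses in the list were -1.42 for slc27a2a (adjusted p = 5.10e-07 by edgeR) and -1.15 for CYP27A1 ENSDARG00000055159 (adjusted p = 0.00173). The cholesterol 25-hydroxylase gene CH25H rose 6.73-fold in mutants, at 65, 15 and 19 counts with iAs against 2, 2 and 11 without, with replicate 1 of the treated mutant far above the others. Its relative ch25hl2 fell 5.35-fold in mutants and 3.00-fold in wild type, at under 1.2 CPM in every library. The interaction was not called by edgeR for CH25H (2.28, SE 1.19, adjusted p = 0.161) or ch25hl2 (-0.83, SE 0.72, adjusted p = 0.414).

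Transport genes other than the 4 members were split evenly in their response to iAs within each genotype. Of 22 tested, 8 fell and 8 rose in mutants (median 0.15), where 32.6% and 31.1% of all genes did. In wild type 7 fell and 7 rose (median 0.07), where 22.2% and 22.6% of all genes did. The split between genotypes was uneven. The interaction was negative for 9 and positive for 3, where 17.9% and 12.3% of all genes were. Under iAs, 11 were lower and 5 higher in mutants than in wild type, where 27.9% and 22.5% of all genes were. The genes with the largest changes in mutants, named next, all fell. SLC10A1 (ENSDARG00000030588), the hepatocyte's basolateral bile acid uptake transporter NTCP, was at 0.351 ± 0.0754 CPM in treated mutants, 3.32 ± 0.172 in untreated mutants, 1.14 ± 0.247 in treated wild type and 2.31 ± 0.399 in untreated wild type (SD, n = 3 each). It fell 9.31-fold in mutants and 2.04-fold in wild type, with a difference of -2.19 (adjusted p = 1.32e-04 by edgeR). ABCG8, a subunit of the sterol exporter of the canalicular and brush-border membranes, fell 5.07-fold in mutants and 1.45-fold in wild type. Its partner ABCG5, chosen for naming after its values were seen, fell 3.00-fold in mutants and was at 0.08 on the log2 scale (SE 0.10) in wild type. ABCB4, which moves phosphatidylcholine into bile in mammals, fell 3.40-fold in mutants and 2.55-fold in wild type. SLC10A4, a relative of the bile acid transporters known from neurons in mammals, fell 4.95-fold in mutants and 1.37-fold in wild type (difference -1.85, adjusted p = 3.20e-05). The basolateral exporter subunit slc51a, also named after its values were seen, fell 1.49-fold in mutants and 1.16-fold in wild type. Among the genes that rose, also named after their values were seen, abcc2, a canalicular exporter of conjugates in mammals, was at 664 ± 36.8 CPM in treated mutants and 421 ± 23.6 CPM in untreated mutants (SD, n = 3 each), a 1.58-fold rise, and it rose 1.84-fold in wild type. ABCC4, a basolateral exporter in mammals, rose 1.70-fold in mutants and 1.58-fold in wild type. SLC10A7, another relative of the bile acid transporters, rose 1.85-fold in mutants and was at 0.10 on the log2 scale (SE 0.10) in wild type.

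Of 42 other sensors and regulators tested, 17 fell and 7 rose in mutants (median -0.12), where 32.6% and 31.1% of all genes did. In wild type 13 fell and 4 rose (median -0.12), where 22.2% and 22.6% of all genes did. After nr0b2b, the largest called changes in mutants were in NR0B1, the SHP relative DAX1, which fell 2.80-fold in mutants and 2.35-fold in wild type, and NR5A1 (ENSDARG00000023362), the steroidogenic receptor SF-1, which fell 2.22-fold in mutants at 6 to 31 counts per library in that comparison. This NR5A1 ID was not called in wild type (-0.39, SE 0.39, adjusted p = 0.447 by edgeR). The interaction was called neither for it (-0.76, SE 0.56, adjusted p = 0.337) nor for NR0B1 (-0.25, SE 0.33, adjusted p = 0.605). Another NR5A1 ID (ENSDARG00000103176), named after its values were seen, had means of 0.744 CPM in treated and 0.657 CPM in untreated mutants. Next was NR1D1, the clock repressor Rev-erb alpha, which fell 1.84-fold in mutants and 1.25-fold in wild type. A copy of the vitamin D receptor, VDR (ENSDARG00000099483), rose 1.55-fold in mutants and fell 1.78-fold in wild type, a difference of 1.47 (adjusted p = 0.00305 by edgeR). In wild type this copy was at 1.26 to 2.42 CPM with iAs and 2.33 to 3.76 CPM without, which overlapped. The more counted VDR copy (ENSDARG00000070721), named after its values were seen, had lower means with iAs in both genotypes. These were 18.6 against 24.4 CPM in mutants and 16.1 against 25.7 CPM in wild type. FGF19, the gut hormone that represses cyp7a1 in mammals and was named after its values were seen, was at 0.626 to 0.836 CPM in treated mutants and 0.252 to 0.906 CPM in untreated mutants and was not called (0.52, SE 0.45, adjusted p = 0.324).

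**Figure D4:**
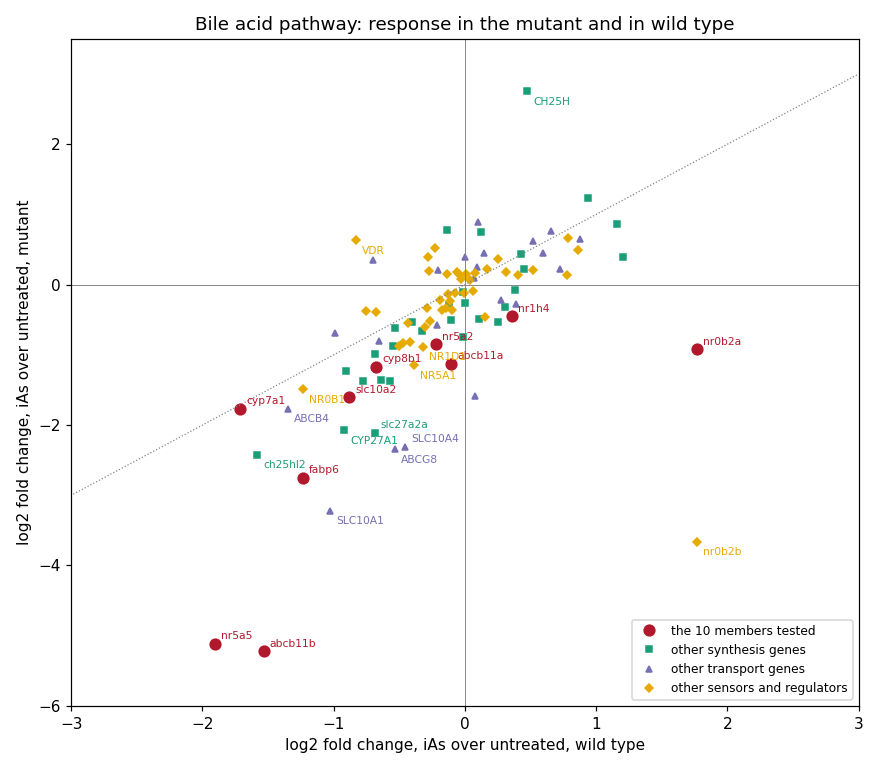
Log2 fold change with iAs in the mutant (y axis) against that in wild type (x axis) for the 10 bile acid genes tested and for the 29, 22 and 42 other genes of synthesis, transport and regulation, with equal responses on the dotted line. The bile acid genes and the genes named from the lists are labelled. The points abcb11b and nr5a5 lie lowest, and nr0b2a and nr0b2b lie farthest to the right among the genes that fell in mutants.

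Markers of the tissues that hold these genes moved with iAs as well. Beside the marker counts that follow, 32.6% of all genes fell and 31.1% rose in mutants. In wild type 22.2% of all genes fell and 22.6% rose. Of 22 hepatocyte markers, 14 fell and 6 rose in mutants (median -0.56), and 13 fell and 4 rose in wild type (median -0.52). Their summed level was 3801 to 4191 CPM in treated mutants and 5181 to 6164 CPM in untreated mutants. In wild type it was 3756 to 4191 CPM with iAs and 5679 to 6066 CPM without. The list was uneven, as the liver fatty acid binding protein fabp10a alone fell 13.2-fold in mutants and 2.02-fold in wild type. None of the hepatocyte markers was at 0 in any group.

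Of 32 enterocyte markers, 30 fell and 2 rose in mutants (median -2.63), and 27 fell and 2 rose in wild type (median -1.36). They summed to 2901 to 3133 CPM in treated mutants, 5661 to 5973 in untreated mutants, 3570 to 3734 in treated wild type and 4894 to 5479 in untreated wild type. FABP2, the intestinal fatty acid binding protein, fell 8.06-fold in mutants, and MEP1B (ENSDARG00000037533) was at 0 in all 3 treated mutant libraries. This MEP1B ID also fell 95.7-fold in wild type, and its interaction was not called (adjusted p = 0.249 by edgeR). Without iAs it was 3.04-fold lower in mutants than in wild type. Another MEP1B ID (ENSDARG00000040683) fell 13.6-fold in mutants and 4.86-fold in wild type. Of 13 markers of ileal and lysosome-rich enterocytes, with the members slc10a2 and fabp6 left out, 10 fell and 2 rose in mutants (median -1.08), and their summed level was 637 to 703 CPM in treated mutants and 930 to 1100.5 CPM in untreated mutants. In wild type 8 fell and 1 rose (median -0.50). SLC10A2, at -1.61 in mutants, and FABP6, at -2.75, both lay below the ileal median of -1.08. Against the enterocyte median of -2.63, SLC10A2 lay above it and FABP6 close to it.

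Exocrine pancreas, another tissue known to express nr5a2, had 17 of 17 markers called lower in mutants (median -1.61) and 16 of 17 in wild type (median -0.76). Its summed level was 4211 to 5294 CPM in treated mutants and 9693 to 11148 CPM in untreated mutants. In wild type it was 8867 to 10264 CPM with iAs and 13594.5 to 16307 CPM without. Without iAs, 13 of the 17 were called lower in mutants than in wild type and 1 higher, where 6.82% and 6.64% of all genes were. The elastase ela2 fell 8.12-fold with iAs in mutants. Of 11 biliary markers tested, 5 rose and 4 fell in mutants (median 0.20), and 3 rose and 3 fell in wild type (median 0.08). The 12 IDs of that list summed to 2252 to 2772 CPM in treated mutants and 1487 to 1712 CPM in untreated mutants. In wild type they summed to 1503 to 1666 CPM with iAs and 1489 to 1532 CPM without. In RNA from whole larvae, counts of the biliary and ileal markers cannot be tied to those cells alone. The part that these marker changes have in the results for the bile acid genes was not tested.

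Set per 1000 CPM of hepatocyte markers, ABCB11 was at 0.284, 0.108 and 0.542 in treated mutants against 9.08, 7.00 and 7.38 in untreated mutants, a ratio of group means of 25.1. In wild type it was at 5.84, 3.61 and 3.56 with iAs against 8.48, 9.22 and 8.14 without. CYP7A1 was at 3.15, 3.91 and 4.38 per 1000 CPM of hepatocyte markers in treated mutants against 9.26, 7.58 and 10.1 in untreated mutants, and at 4.93, 5.05 and 5.17 in treated against 11.5, 11.2 and 11.2 in untreated wild type. The treated libraries of ABCB11 and CYP7A1 thus stayed below the untreated ones on this scale. The hepatocyte list was uneven, with 14 of its 22 markers lower and 6 higher in mutants. Its marker fabp10a fell 13.2-fold there, more than CYP7A1 at 3.40-fold. Values on the hepatocyte scale therefore depend on using the sum. CYP8B1 was at 5.18 to 7.13 in treated mutants against 7.96 to 10.8 in untreated mutants, and at 9.91 to 10.2 in treated against 10.9 to 11.2 in untreated wild type, untreated over treated ratios of group means of 1.57 and 1.097. NR1H4 was at 1.33 to 1.56 in treated mutants and 1.13 to 1.4998 in untreated mutants, which overlapped, so its fall in mutants was not seen on this scale. In wild type NR1H4 was at 1.82 to 2.19 with iAs against 1.02 to 1.13 without. For nr5a5 the scale gave 0.0473 to 0.113 in treated mutants against 1.33 to 2.41 in untreated mutants. In wild type it gave 0.552 to 0.832 with iAs against 1.56 to 1.84 without. NR0B2 on the same scale was at 3.47, 2.78 and 2.64 in treated mutants and 3.90, 4.21 and 3.48 in untreated mutants, a near overlap, and at 5.27, 4.20 and 5.44 in treated against 1.04, 0.763 and 1.198 in untreated wild type. Per 1000 CPM of enterocyte markers, FABP6 was at 6.14, 4.98 and 9.20 in treated mutants against 22.1, 22.5 and 25.9 in untreated mutants, and SLC10A2 at 3.08, 3.67 and 3.51 against 5.72, 4.78 and 5.71. For NR5A2 the enterocyte scale gave 4.06 to 5.25 in treated mutants and 3.58 to 4.75 in untreated mutants, which overlapped. In wild type it gave 5.67 to 5.92 with iAs against 4.36 to 4.90 without. On the enterocyte scale nr5a5 was at 0.0633 to 0.147 in treated mutants against 1.42 to 2.21 in untreated mutants. Treated wild type had 0.625 to 0.973 for nr5a5, 13.9 to 17.3 for FABP6 and 4.43 to 5.72 for SLC10A2. Untreated wild type had 1.81 to 2.05, 23.6 to 26.8 and 6.31 to 6.79 in the same order. The enterocyte sum fell less in mutants than the median marker did (log2 fold change -2.63), and its members apoa1a and apoa4a rose (0.96 and 1.39). The FABP6, SLC10A2, NR5A2 and nr5a5 values on the enterocyte scale therefore depend on using the sum. On the hepatocyte scale NR5A2 was at 3.10 to 4.04 in treated mutants and 3.67 to 5.05 in untreated mutants, also overlapping. In wild type it was at 4.93 to 5.64 with iAs against 3.94 to 4.29 without. Which of these tissues supplied the counts of the 10 genes was not measured.

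**Figure D5:**
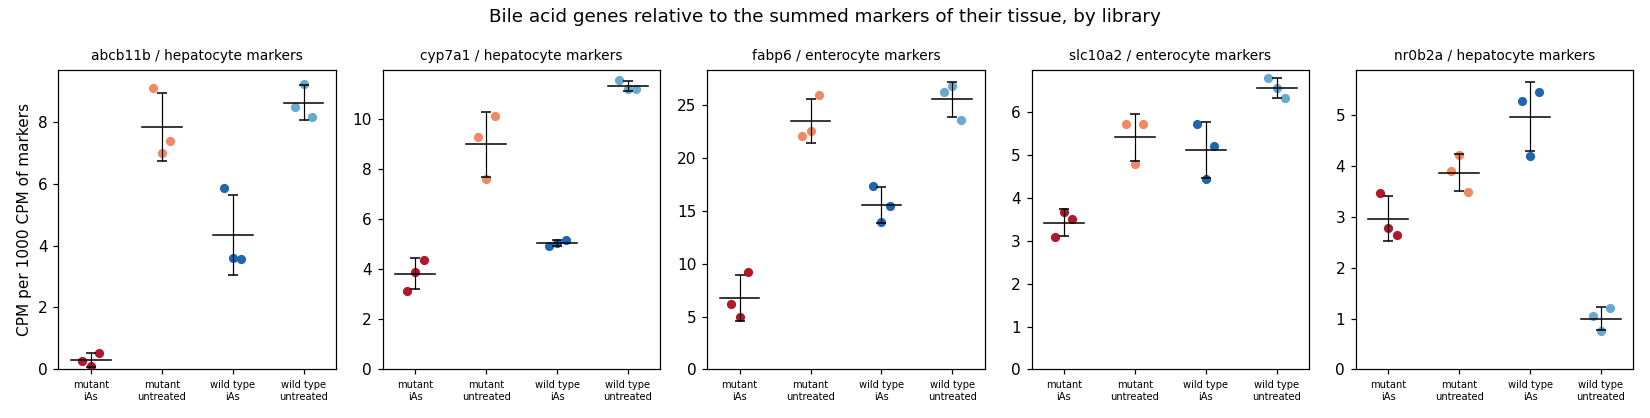
Level of abcb11b, cyp7a1 and nr0b2a per 1000 CPM of hepatocyte markers and of fabp6 and slc10a2 per 1000 CPM of enterocyte markers (y axes, linear and starting at 0) in each of the 3 libraries per group, with mean and SD. The abcb11b ratio is 0.108 to 0.542 in treated mutants against 7.00 to 9.08 in untreated mutants. The slc10a2 ratio is 3.08 to 3.67 against 4.78 to 5.72. The enterocyte sum fell less in mutants than its median marker, so the fabp6 and slc10a2 ratios depend on using the sum. The hepatocyte markers changed unevenly, so the abcb11b, cyp7a1 and nr0b2a ratios depend on their sum as well.

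Among genes with a mean of at least 5 CPM, those most like ABCB11 by Pearson correlation of log2 CPM over the 12 libraries were fabp10a (r = 0.993), si:ch211-212c13.8, guca1aa, SLCO3A1 and si:ch211-217g15.3. For SLC10A2 they were SOX1 (ENSDARG00000069866, r = 0.994), BHLHE41, calm1b, SLC43A1 and FAM151A. CYP7A1 was closest to OGT (ENSDARG00000105243, r = 0.994), SNAP25, sult1st6, CDK5R2 and NHERF1. The gene nr5a5 was closest to the brush-border cadherin gene cdhr5b (r = 0.997), then to ENSDARG00000068586, si:ch211-217g15.3, dpp4 and CAMTA1. These r values rest on 4 groups of libraries that stand apart, so they describe shared differences between groups more than variation from library to library.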

How the data were processed

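Poly-A RNA libraries were sequenced for 12 pools of larvae, each from 100 ng of total RNA amplified in 12 PCR cycles, per the series' design text. The authors deposited raw read counts per Ensembl gene ID, with 1 table for each library. The submitters' processing notes name FastQC 0.11.5, Trimmomatic 0.36 and build GRCz10. How reads were aligned and counted, and whether strand was used, is not given in the sources used here. Library totals were 28909467 to 43759270 counts. The common biological coefficient of variation was 9.00%. No libraries held identical values, and counting error alone did not account for the differences among replicates (chi-square per degree of freedom 5.18 to 21.5).

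Groups came from the sample titles. Symbols came from a table that named 26269 of the 32105 IDs. Genes were filtered with filterByExpr (minimum count 10), scaled with TMM and fitted with edgeR 4.0.16 (glmQLFit, glmQLFTest, R 4.3.3) over the 4 groups. The fit was tested on simulated data. SE is the size of the log2 fold change over the root of the F statistic. Floors cover counting error only.

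The bile acid genes, the pathway lists and the marker lists were chosen with earlier results of these data known. A listed symbol was matched exactly or, failing that, without its copy suffix to the IDs with that human-style name. The 10 bile acid genes are named in every comparison. From each pathway list, up to 4 genes called for iAs in mutants and up to 2 called in the interaction are named by size, and from the marker lists fabp10a, FABP2 and ela2. MEP1B was added as the marker at 0. Alternatives were the size factors of DESeq2 within edgeR, scaling by library size, DESeq2 1.42.0 itself, no filter, a mean count of at least 50, fits of the compared groups alone, a replicate block, and each library left out. Figures were drawn with matplotlib 3.10.9.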

Additional observations from a re-analysis of the deposited data

Results flagged for a closer look

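For 9 of the 10 bile acid genes tested, the response to iAs differed between the genotypes by edgeR's test of the interaction, where 30.2% of all genes did in either direction. On the log2 scale, mutant response minus wild-type response, the differences were -3.69 for ABCB11, -3.21 for nr5a5, -2.69 for NR0B2, -1.52 for FABP6, -1.02 for abcb11a, -0.81 for NR1H4, -0.72 for SLC10A2, -0.63 for NR5A2 and -0.49 for CYP8B1. For NR0B2 and NR1H4 the responses had opposite signs, lower in mutants and higher in wild type. ABCB11 was chosen as a lowered copy, so its value is a description, and 8 of the 9 others were called. For the other seven the mutant value was the more negative.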

How the results depend on the processing

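Across 19 other settings, the 10 bile acid genes kept their direction and their call for iAs in mutants and for mutant against wild type under iAs, and 9 were called in the interaction in each of its settings. The counts for iAs and for the interaction in this section include ABCB11, whose values are descriptions. For iAs in wild type, 8 genes were called, and 7 to 9 when 1 library was left out. For untreated mutant against wild type, 3 were called, 4 in a fit of the untreated groups alone (abcb11a added), and 1 to 3 when 1 library was left out. The count was 1, NR0B2, without replicate 1 or 3 of untreated wild type or replicate 2 of the untreated mutant. Over all genes, leaving out 1 library gave 13660 to 14685 calls for iAs in mutants, 8555 to 10677 in wild type, 10225 to 11913 between treated genotypes, 2097 to 3495 between untreated ones and 5993 to 7140 interactions. Signs turned, in values that were not called, when 1 library was left out. Between untreated genotypes, the log2 fold change over the 19 other settings ran from -0.064 to 0.094 for FABP6 and from -0.035 to 0.13 for NR5A2. For nr5a5 it ran from -0.016 to 0.27. The interaction for CYP7A1 ran from -0.14 to 0.093 over its 18 settings. Further turned values within these ranges were -0.0093 for FABP6, -0.0049 for NR5A2 and 0.062 for CYP7A1. The cause was not tested. Depth limits nr5a5 and nr0b2b in treated mutants, at 7 to 14 and 2 to 7 counts per library. It also limits SLC10A1 there, at 16, 12 and 9 counts, NR5A1 (ENSDARG00000023362), at 15, 10 and 6, and ch25hl2, at 3, 4 and 9.

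The titles number the replicates as cl1 to cl3. Same-numbered libraries showed little shared deviation from their group means (r from -0.11 to 0.15, above 0.1 in 2 of 18 pairs). Differently numbered libraries were not compared, so these values cannot show whether the replicates were paired. With the replicate number as a block, 14558 genes were called for iAs in mutants, 10174 in wild type and 6799 in the interaction, with 10, 8 and 9 of the bile acid genes among them.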

Other observations

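With the group means removed, Pearson's r between the log2 levels of the bile acid genes over the 12 libraries had a median of 0.28 over all 45 pairs and ran from -0.72 to 0.84. ABCB11 and nr5a5 were the pair with the highest r, and NR0B2 and abcb11a the pair with the lowest. The 9 pairs that hold NR0B2 had a median of -0.11 and ran up to 0.082. Those that hold NR5A2 had a median of 0.14 and ran from 0.010 to 0.47. All genes of a library share its scaling and its larvae, and these values are descriptions without a test.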
